A study of Mus musculus with 4 samples.

Results

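Adipokines are the proteins that fat tissue releases into the blood or into its own surroundings. The arrays were read here for 9 of them, Adipoq, Lep, Retn, Cfd, Rbp4, Nampt, Apln, Lcn2 and Rarres2, taken as every probe that carries one of these names in the scanner files of all 4 arrays. They are 9 of 22066 genes and have 10 of 55681 probes. All 9 gave a signal well above background on every array, so none was lost to the filter on dim probes.

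RNA levels were read on 4 Agilent arrays of 1 colour, 1 for each of WT iBAT, ASK1KO iBAT, WT eWAT and ASK1KO eWAT. iBAT is interscapular brown adipose tissue and eWAT is epididymal white adipose tissue, and each array received a pool of RNA from 3 males at 10 weeks of age. ASK1KO mice lack ASK1, a stress-activated kinase encoded by Map3k5, in the whole body, and the study used C57BL/6J mice and bred the WT and ASK1KO animals separately. No drug, diet or cold exposure is named in the array labels. With 1 pool a condition, the spread between mice was not measured, and breeding line and genotype cannot be told apart.

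Adiponectin (Adipoq) is made almost only by adipocytes and favours insulin sensitivity, while leptin (Lep) reports the size of the fat store to the brain and is a textbook product of white more than of brown fat. Resistin (Retn) is secreted by white adipocytes in the mouse, and Cfd encodes adipsin, the protease that starts the alternative complement pathway. Rbp4 carries retinol in blood, Nampt is the rate-limiting enzyme of NAD salvage that is also found outside cells as visfatin, apelin (Apln) is a peptide ligand of a G-protein-coupled receptor, Lcn2 is a siderophore-binding lipocalin of the innate response, and Rarres2 encodes the chemoattractant chemerin.

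The probes are 60 bases long, and their positions are those given in the files on mm9, where exons were not assigned. Most lie at single blocks: Adipoq at chr16:23157576-23157635, Lep at chr6:29023234-29023293, Cfd at chr10:79355302-79355361, Rbp4 at chr19:38191120-38191179, Nampt at chr12:33535475-33535534, Apln at chrX:45378593-45378652 and Lcn2 at chr2:32240199-32240258. The Rarres2 probe matches chr6:48519775-48519969, a span of 195 bases for its 60, so its match is split. Retn has 2 probes, at chr8:3657312-3657371 and chr8:3659757-3659816, and Lep has 1 probe printed in 10 spots. The probe of Adipoq, the classical adipocyte product, and the first probe of Retn are shown. Every Adipoq value rests on what binds its probe, while gene ratios of Retn average the printed probe and the second one.
Adipoq probe: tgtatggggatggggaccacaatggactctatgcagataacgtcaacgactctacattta
Retn first probe: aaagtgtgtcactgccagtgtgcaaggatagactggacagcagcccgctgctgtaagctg

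Promoters are shown for Lep and Retn, which stood furthest below eWAT in iBAT, and for Nampt, the only member at least 2-fold above it. Each is the 250 bases before the start site in the RefSeq table on GRCm38.p6, all on the plus strand, at chr6:29059971-29060220 for Lep, chr8:3655520-3655769 for Retn and chr12:32820085-32820334 for Nampt. Capitals mark matches, on either strand, to TATAA (the core of the TATA box), CCAAT (the CCAAT box), GGGCGG (the GC box), TTGCGCAA (a palindrome that C/EBP factors bind) and TGACGTCA (the cyclic AMP response element).
Lep: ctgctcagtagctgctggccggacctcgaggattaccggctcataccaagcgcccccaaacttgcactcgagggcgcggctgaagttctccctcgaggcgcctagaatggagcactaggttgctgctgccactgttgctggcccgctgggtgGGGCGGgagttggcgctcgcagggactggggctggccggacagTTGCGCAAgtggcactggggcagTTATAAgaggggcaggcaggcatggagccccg
Retn: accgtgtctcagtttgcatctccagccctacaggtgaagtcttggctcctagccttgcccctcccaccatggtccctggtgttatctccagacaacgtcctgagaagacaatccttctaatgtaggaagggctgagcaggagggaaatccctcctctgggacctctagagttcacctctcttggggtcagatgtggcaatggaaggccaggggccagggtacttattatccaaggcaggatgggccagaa
Nampt: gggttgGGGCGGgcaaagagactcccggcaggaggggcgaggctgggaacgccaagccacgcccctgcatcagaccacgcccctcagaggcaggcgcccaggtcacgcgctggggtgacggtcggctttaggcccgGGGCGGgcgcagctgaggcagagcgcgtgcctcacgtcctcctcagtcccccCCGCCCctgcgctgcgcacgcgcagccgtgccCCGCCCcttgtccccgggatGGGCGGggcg

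The Lep promoter held TTGCGCAA from 55 to 48 bases before the start, a sequence found in 0.164% of 32851 promoters, 54 in all. It also held GGGCGG from 98 to 93 bases before the start, and TATAA, whose matches on the 2 strands overlap, at 31 to 27 and 32 to 28. The Retn window held none of the 5 motifs, and the Nampt window held 5 copies of GGGCGG with a GC content of 75.6%. The table holds 9 promoters of 8 members, as Rbp4 has 2. Of these 9 promoters GGGCGG was present in 5, against 32.7% of all promoters, TATAA in 2, against 22.8%, and CCAAT in 2, against 33.85%. TGACGTCA, present in 1.55% of all promoters, was in none of the members' windows. These are matches of letters and not measured binding.

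Of the 55681 probes, between 29007 and 33408 were well above background on an array, and no spot was saturated. The 75th percentile of the signal was 356 and 371 in WT and ASK1KO iBAT and 673 and 634 in WT and ASK1KO eWAT, and each log2 level below is relative to that percentile of its array. One Map3k5 probe read 448 in WT and 117 in ASK1KO iBAT and 701 and 194 in eWAT, log2 ratios of -2.00 and -1.76. The second Map3k5 probe gave -0.06 and -0.51, and whether either probe lies in the deleted part is not given in the sources used here. All 10 brown adipocyte markers were at least 2-fold higher in iBAT than in eWAT of WT mice, beside 16.4% of all genes, with a median log2 ratio of 6.22. All 10 adipocyte markers were well above background on every array.

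The first question was how the adipokines divide between brown and white fat. In WT mice, 7 of the 9 were at least 2-fold apart between the tissues, 6 lower in iBAT and 1 higher, against 29.8% of 14236 genes at least 2-fold apart, 13.4% lower and 16.4% higher. In ASK1KO mice again 7 of 9 were at least 2-fold apart, against 25.0% of 14513 genes, 12.6% lower and 12.3% higher. The 7 were the same genes with the same direction in both genotypes: Lep, Retn, Rbp4, Lcn2, Rarres2 and Apln lower in iBAT, and Nampt higher. The members' median log2 ratio, iBAT minus eWAT, was -1.73 in WT and -1.16 in ASK1KO, beside medians over all genes of 0.12 and 0.03. In bulk tissue, fewer cells of a type and less RNA per cell cannot be told apart.

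**Figure D1:**
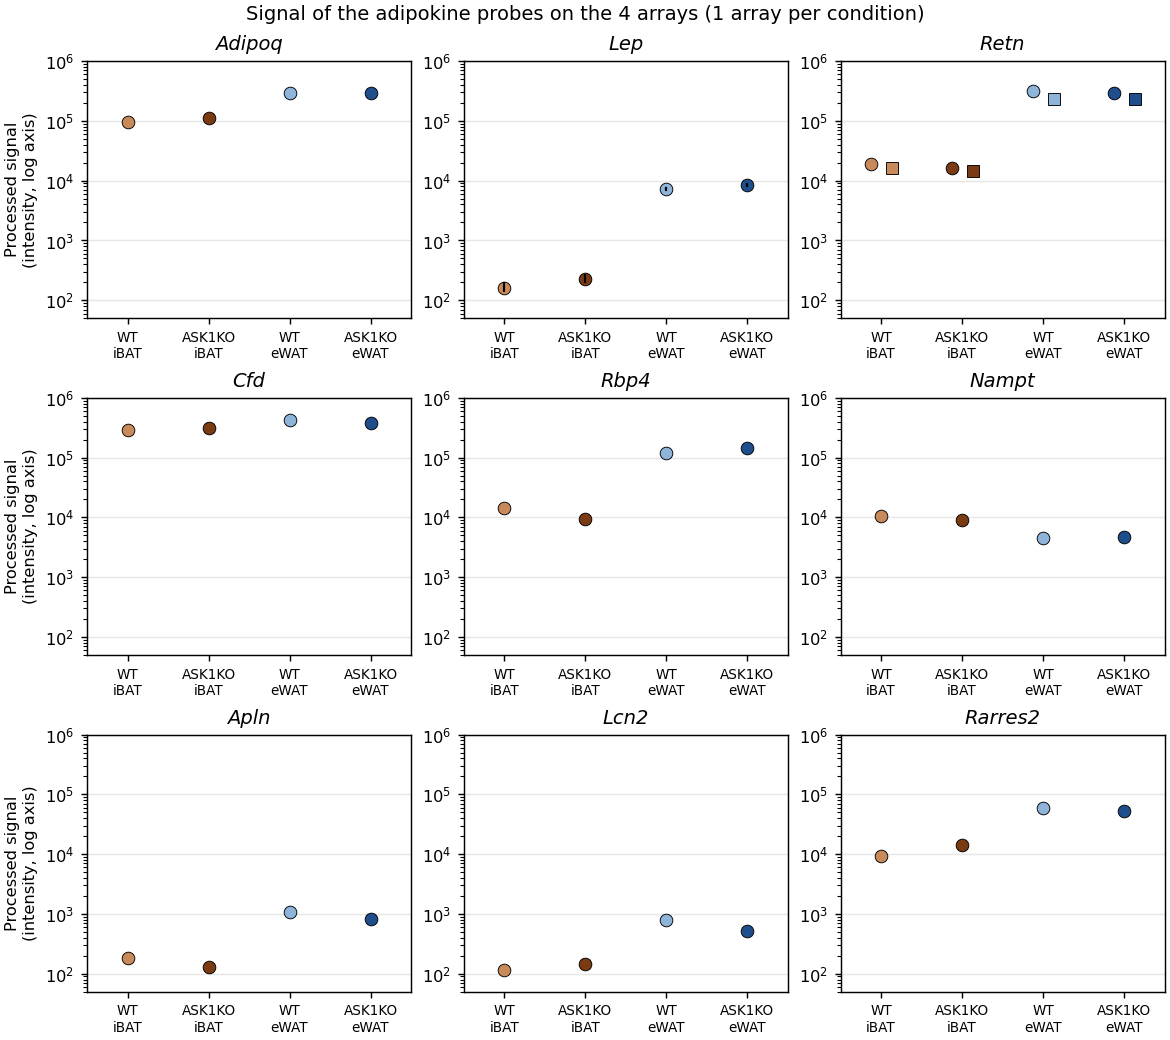
Processed signal (intensity, log axis) of each adipokine probe on the 4 arrays, 1 array per condition; circles and squares for Retn are its first and second probe, and lines for Lep run from its lowest to its highest of 10 spots. Lep, Retn, Rbp4, Apln, Lcn2 and Rarres2 sit lower on both iBAT arrays than on both eWAT arrays, and Nampt sits higher.

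Leptin was the member furthest apart. Its signal was 162 in WT iBAT, 231 in ASK1KO iBAT, 7232 in WT eWAT and 8398 in ASK1KO eWAT. On the level scaled to each array's 75th percentile it was 23.5-fold lower in iBAT than in eWAT of WT mice and 21.3-fold lower in ASK1KO mice, log2 ratios of -4.56 and -4.42. Only 0.316% of the genes measured in WT had a lower ratio. Over the 10 spots of the probe the SD of the log2 ratio was 0.09 in WT and 0.14 in ASK1KO, which is technical error of the array and holds nothing of the mice.

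Resistin followed. Its first probe, printed above, read 18673, 16005, 310091 and 295284 on the WT iBAT, ASK1KO iBAT, WT eWAT and ASK1KO eWAT arrays. The second read 16002, 14408, 233345 and 229381. Both probes gave the same order of arrays and close ratios, -3.13 and -2.95 in WT and -3.43 and -3.22 in ASK1KO. As their mean, Retn was 8.22-fold lower in iBAT of WT mice and 10.0-fold lower in ASK1KO mice.

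Rbp4, the retinol carrier, had signals of 14579 in WT iBAT, 9362 in ASK1KO iBAT, 119136 in WT eWAT and 142089 in ASK1KO eWAT. The iBAT arrays lay below both eWAT arrays, by 4.32-fold in WT and 8.89-fold in ASK1KO, the widest change in tissue gap between the genotypes among the 9 members. For chemerin (Rarres2) the signals were 9352, 14027, 58682 and 53605 in the same order of arrays, 3.32-fold lower in iBAT in WT and 2.24-fold lower in ASK1KO. Both genes thus kept the same order of tissues, while the gap was wider in ASK1KO for Rbp4 and narrower for Rarres2.

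Apelin gave signals of 187 in WT iBAT, 129 in ASK1KO iBAT, 1084 in WT eWAT and 819 in ASK1KO eWAT. Its level was 3.07-fold lower in iBAT in WT and 3.72-fold lower in ASK1KO. Lipocalin 2 read 115, 143, 798 and 523 in that order, 3.68-fold lower in iBAT in WT and 2.14-fold lower in ASK1KO. The ASK1KO difference of Lcn2 was close to the 2-fold limit, and normexp background correction put it under, at -0.80 on the log2 scale.

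Nampt went the other way, with a signal of 10393 in WT iBAT, 8912 in ASK1KO iBAT, 4574 in WT eWAT and 4770.5 in ASK1KO eWAT. Its scaled level was 4.30-fold higher in iBAT of WT mice and 3.19-fold higher in ASK1KO mice. Without any scaling between arrays the ASK1KO log2 ratio was 0.90, just under 2-fold. Of the genes measured in WT, 96.0% had a lower ratio than Nampt.

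Adiponectin and adipsin were the 2 members within 2-fold, though Adipoq passed 2-fold under 3 of 10 other ways of processing in each genotype. Adipoq read 96119 in WT iBAT, 109878 in ASK1KO iBAT, 292672 in WT eWAT and 293866 in ASK1KO eWAT, and its scaled log2 ratio was -0.69 in WT and -0.65 in ASK1KO. Cfd read 292586, 313502, 427426 and 385776. Its raw signal was lower on the iBAT arrays and its scaled level was higher there, by log2 values of 0.37 in WT and 0.47 in ASK1KO, since the 75th percentile of the eWAT arrays was higher. Cfd therefore has no settled order of the tissues, as its WT ratio was below 0 with quantile normalization, without scaling and with cyclic loess, and its ASK1KO ratio with the first 2 of these.

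**Figure D2:**
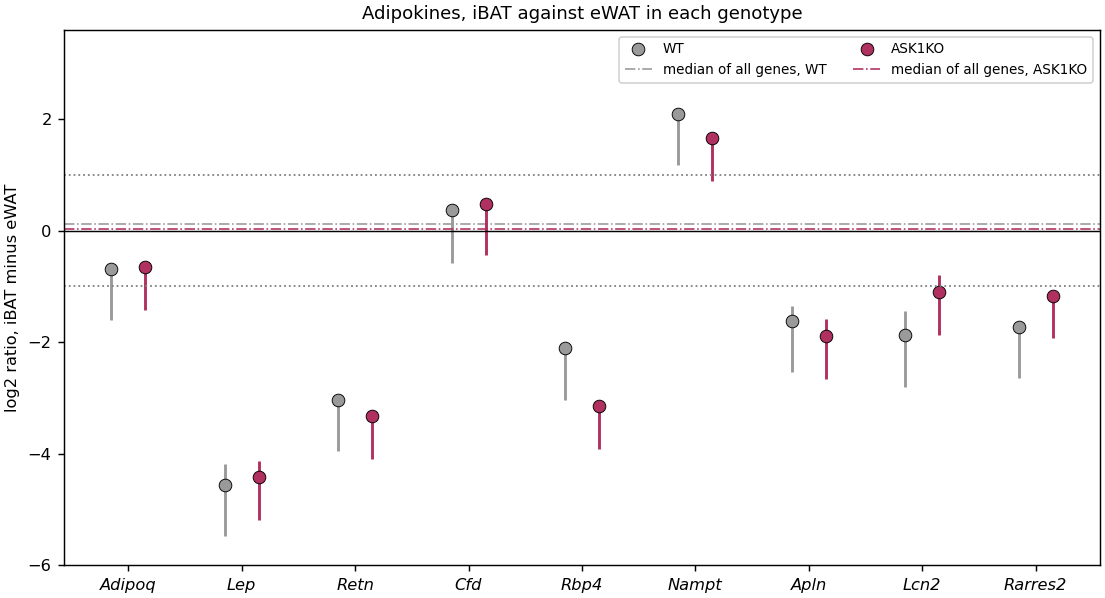
log2 ratio of each adipokine, iBAT minus eWAT, in WT (grey) and ASK1KO (red); points are the values of the text, vertical lines the range over 10 other ways of processing (not a replicate error), dotted lines 2-fold and dash-dotted lines the medians of all genes. Lep is lowest at -4.56 and -4.42, Nampt is highest at 2.10 and 1.67, and the range of Cfd crosses 0.

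The tissue difference was tested across genes with limma, by a fit of genotype and tissue over the 4 arrays that takes the tissue difference as equal in both genotypes. The error of this fit comes from 1 residual degree of freedom a gene, the difference between the genotypes' tissue gaps, together with the variance shared over 14057 genes. All 9 adipokines passed at an adjusted p under 0.05, 7 lower in iBAT and 2 higher, but so did 55.5% of the 14057 genes, 24.6% lower and 30.8% higher. Lep was lower by a log2 value of -4.49 ± 0.15 (SE, adjusted p = 1.16e-05) and Retn by -3.18 ± 0.16 (adjusted p = 3.35e-05). Rbp4 gave -2.63 ± 0.25 (adjusted p = 0.000339), Apln -1.76 ± 0.16 (adjusted p = 0.000243), Lcn2 -1.49 ± 0.21 (adjusted p = 0.00165) and Rarres2 -1.45 ± 0.18 (adjusted p = 0.00103). Nampt was higher in iBAT by 1.89 ± 0.17 (adjusted p = 0.000253). Adipoq was lower in iBAT by -0.67 ± 0.15 on the log2 scale (adjusted p = 0.0090). Cfd passed narrowly, at 0.42 ± 0.15 (adjusted p = 0.0481), and kept neither its call nor its direction over the other ways of processing.

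Markers of other cell types differed between the tissues along with these genes. Of 10 macrophage markers, 9 could be compared in WT and 8 were at least 2-fold lower in iBAT, beside 13.4% of all genes, with a median log2 ratio of -3.08. Their summed signal was 3713 in WT iBAT, 6059 in ASK1KO iBAT, 59173 in WT eWAT and 55346 in ASK1KO eWAT. Mesothelial markers summed to 152 and 204 on the iBAT arrays, where 2 and 3 of 10 were detected, and to 29013 and 22573 on the eWAT arrays, where all 10 were. Skeletal muscle markers were higher in iBAT, with a median log2 ratio of 8.12 in WT. Hepatocyte markers summed to 13069 in WT eWAT and to 997 in ASK1KO eWAT, beside 1146 and 1463 in WT and ASK1KO iBAT. Of 10 epididymal epithelium markers, 1 was detected on each array. The part of these cells in the adipokine differences was not tested.

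The second question was whether loss of ASK1 changed the adipokines. None of the 9 was 2-fold apart between ASK1KO and WT in iBAT, where 1.85% of 14377 genes were (0.835% higher and 1.02% lower), and none in eWAT, where 1.15% of 15377 genes were (0.286% higher and 0.865% lower). The log2 ratio, ASK1KO minus WT, had a median over the members of 0.04 in iBAT and 0.04 in eWAT, beside -0.07 and 0.02 over all genes. Its extremes in iBAT were -0.70 (Rbp4) and 0.52 (Rarres2), and in eWAT -0.52 (Lcn2) and 0.34 (Rbp4). Over probes printed in at least 5 spots, the technical SD of the ratio had a median of 0.09 in iBAT and of 0.06 in eWAT. Each array enters 1 comparison of tissues and 1 of genotypes, so the values of the 2 kinds of comparison are not independent.

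**Figure D3:**
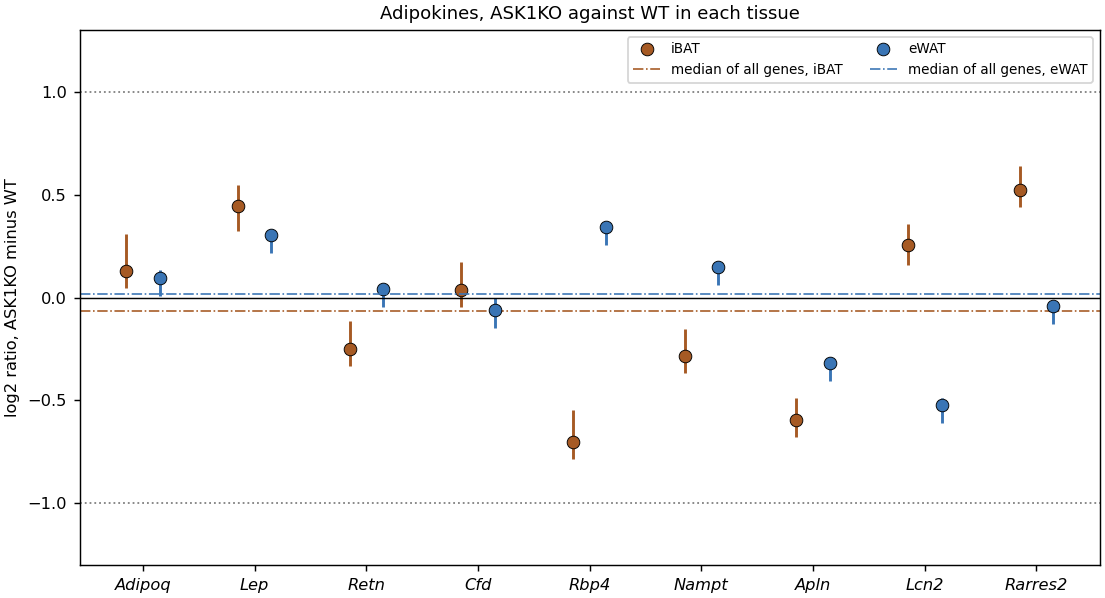
log2 ratio of each adipokine, ASK1KO minus WT, in iBAT (brown) and eWAT (blue); points are the values of the text, vertical lines the range over 10 other ways of processing (not a replicate error), dotted lines 2-fold and dash-dotted lines the medians of all genes. No point reaches a dotted line, and Rbp4 lies at -0.70 in iBAT and at 0.34 in eWAT.

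Leptin and apelin, together with Adipoq, had ratios on the same side of 0 in both tissues. Leptin was 1.36-fold higher in ASK1KO iBAT, a log2 ratio of 0.44, and 1.23-fold higher in ASK1KO eWAT, 0.30. The 10 spots read 144 to 191 with a median of 160 in WT iBAT and 201 to 261 with a median of 238 in ASK1KO iBAT. In eWAT they read 6952 to 7542 with a median of 7239 in WT and 8152 to 8851 with a median of 8356 in ASK1KO. The spots of the 2 genotypes did not overlap in either tissue, which speaks for the precision of the probe and not for the mice, of which there was 1 pool a condition. Of all genes, 92.2% had a lower ratio than Lep in iBAT and 93.8% in eWAT.

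Apelin was 1.51-fold lower in ASK1KO iBAT, a log2 ratio of -0.59, with 4.10% of genes lower. In ASK1KO eWAT it was 1.25-fold lower, -0.32, with 7.63% of genes lower. Adipoq gave log2 ratios of 0.13 and 0.09. In the limma fit over both tissues the genotype difference was -0.45 ± 0.16 for Apln (SE, unadjusted p = 0.025, adjusted p = 0.839) and 0.37 ± 0.15 for Lep (unadjusted p = 0.0432, adjusted p = 0.886). None of the 9 members passed the adjusted threshold, nor did any of the 14057 genes, of which 770 had an unadjusted p under 0.05. The lowest unadjusted p values among the members are thus those of Apln and Lep, and neither difference held after adjustment over all genes.

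The other 6 members had ratios of opposite sign in the 2 tissues, as did 50.6% of the 14059 genes measured in both. Rbp4 was 1.63-fold lower in ASK1KO iBAT, with 2.66% of genes lower, and 1.27-fold higher in ASK1KO eWAT, with 95.1% of genes lower. Rarres2 was 1.44-fold higher in ASK1KO iBAT and had a log2 ratio of -0.04 in eWAT. Lcn2 had 0.26 in iBAT and was 1.44-fold lower in ASK1KO eWAT, -0.52, with 3.19% of genes lower. Nampt had -0.28 and 0.15, Retn -0.25 and 0.04, and Cfd 0.04 and -0.06 in iBAT and eWAT. The eWAT ratio of Retn was below 0 without scaling and with cyclic loess, and the iBAT ratio of Cfd was below 0 with median centring and in the series table.

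Cell type markers differed between the genotypes as well, in comparisons where 40.5% of all genes had a ratio above 0 in iBAT and 54.1% in eWAT. In ASK1KO iBAT, 9 of 10 adipocyte markers had a ratio below 0, with a median of -0.33, and all 9 macrophage markers compared had a ratio above 0, with a median of 0.72. In ASK1KO eWAT all 10 adipocyte markers had a ratio above 0, with a median of 0.08, and the macrophage median was -0.02. Endothelial markers had medians of 0.13 in iBAT and -0.16 in eWAT. Of the neutrophil markers, 5 to 7 of 10 were detected on an array, while Ngp, Mmp8 and Cxcr2 were not well above background on any. In ASK1KO eWAT 5 of the 6 compared had a ratio below 0, with a median of -0.40 and S100a9 lowest at -1.22, and in iBAT 3 of 5, with a median of -0.17. Brown adipocyte markers had a ratio below 0 for 9 of 10 in ASK1KO iBAT, with a median of -0.28, and for 8 of 9 in ASK1KO eWAT, with a median of -0.84 and Ucp1 at -4.63. In eWAT the median was -0.58 for skeletal muscle markers and -0.26 for mesothelial markers, 9 of 10 of them below 0. Hepatocyte markers were lower in ASK1KO eWAT, 5 of 6 by at least 2-fold, beside 0.865% of all genes, with a median of -3.89, while Rbp4, which liver also makes, was higher there. In iBAT 4 of 10 hepatocyte markers were detected in WT and 8 in ASK1KO. The 4 compared had a median of 0.05, 3 above 0 and 1 below. Alb and Ahsg, not well above background in WT iBAT, read 115 and 107.5 in ASK1KO iBAT, at least 5.62-fold and 5.23-fold higher. The part of these cell types in the adipokine ratios was not tested.

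Receptors of the adipokines were the first of the surrounding gene lists. Of 12 receptor genes, 9 could be compared in iBAT, 2 with a ratio above 0 in ASK1KO and 7 below, with a median of -0.24, beside 40.5% of all genes above 0. In eWAT 11 could be compared, 4 above 0 and 7 below, with a median of -0.06, beside 54.1% of all genes above 0. Gpr1, a chemerin receptor, was the only receptor among those compared that was at least 2-fold apart between genotypes, with signals of 50.02 in WT iBAT, 23.6 in ASK1KO iBAT, 362 in WT eWAT and 312 in ASK1KO eWAT. On the log2 scale this gave -1.14 for iBAT and -0.13 for eWAT, and the ASK1KO iBAT signal was near the lowest that counts as well above background on that array, 17.3. Rarres2, its ligand, had 0.52 in iBAT.

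Other receptors of the members, apart from Lepr, were named after their values had been seen. The adiponectin receptors Adipor1 and Adipor2 had -0.15 and -0.32 in ASK1KO iBAT and 0.11 and -0.06 in eWAT, and Cap1, a binding partner of resistin, had -0.34 and -0.48. Aplnr, the apelin receptor, had -0.24 in iBAT and -0.70 in eWAT, below 0 in both tissues as was Apln. Cmklr1, the signalling receptor of chemerin, was not well above background in iBAT and had 0.59 in eWAT. For the leptin receptor, 1 of 4 Lepr probes was well above background on all arrays, with -0.35 in iBAT and 0.41 in eWAT, and 1.29 for iBAT minus eWAT in WT. A pair of further Lepr probes was well above background in eWAT only, with signals of 50.9 and 92.9 in WT, so the Lepr probes do not give 1 order of the tissues.

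Carriers and assembly partners were few. Ttr, which holds Rbp4 in the circulation, had a signal of 829 in WT eWAT and was not well above background in ASK1KO eWAT or in WT iBAT, at least 37.7-fold lower in ASK1KO eWAT than in WT eWAT. In ASK1KO iBAT it read 44.8, at least 2.18-fold higher than in WT. The hepatocyte markers given above also stood highest in WT eWAT, and more of them were detected in ASK1KO iBAT than in WT iBAT. Mmp9, known to form a complex with Lcn2, was lower in iBAT than in eWAT by log2 values of -3.28 in WT and -2.83 in ASK1KO, the same direction as Lcn2, and had a genotype ratio of -0.27 in eWAT. Ero1a, an oxidase of the secretory pathway in which adiponectin is assembled, had -0.39 in ASK1KO iBAT. Gstk1, which takes part in adiponectin assembly, was 1.10 higher on the log2 scale in iBAT of WT mice.

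The alternative complement pathway, in which Cfd acts, had lower levels in iBAT among the genes compared. All 5 compared in WT had a ratio below 0, 4 of them by at least 2-fold, with a median of -2.86, where 56.4% of all genes were above 0 and 13.4% at least 2-fold lower. In ASK1KO all 7 compared were below 0, with a median of -2.45, where 51.4% of all genes were above 0. Cfb, the substrate that adipsin cuts, had -3.69 in WT. Between genotypes none of the genes with a ratio was 2-fold apart, with 4 of 5 above 0 in iBAT, beside 40.5% of all genes, and 1 of 8 above 0 in eWAT, beside 54.1% of all genes. The largest in eWAT was Masp1 at -0.36. Cfi, a protease that inactivates C3b, read 158 in WT eWAT and was not well above background in ASK1KO eWAT, at least 7.20-fold lower. It was not well above background on either iBAT array, and the hepatocyte markers given above also stood highest in WT eWAT. C3, the central component, was the exception in iBAT at -0.55.

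Of the genes of NAD salvage and use, 8 of the 10 compared had a ratio above 0 for iBAT minus eWAT in WT, with a median of 0.85, beside 56.4% of all genes. At least 2-fold higher were 4 of them, beside 16.4% of all genes. In ASK1KO 7 of 10 had a ratio above 0, with a median of 0.65, beside 51.4% of all genes. Sirt3, the mitochondrial deacetylase that uses NAD, had 2.63 in WT. Nnmt, which methylates nicotinamide and so withdraws it from salvage, had -2.36 in WT and was the list's largest genotype ratio in iBAT, -0.67, on the probe well above background on both arrays. The other Nnmt probe, dim in WT iBAT, read 21.3 there and 31.0 in ASK1KO iBAT, the opposite direction. In eWAT the largest was Sirt1, at -0.26.

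Relatives by sequence gave mixed values. Of the C1q/TNF relatives of adiponectin, 2 of 8 had a ratio above 0 for iBAT minus eWAT in WT, where 56.4% of all genes did, with a median of -0.75. C1qtnf4 had 3.23 and C1qtnf7 -3.57. Among those well above background in both genotypes, the largest genotype ratios were -0.57 for C1qtnf12 in iBAT and -0.77 for C1qtnf4 in eWAT. C1qtnf6, not well above background in WT iBAT, was at least 1.77-fold higher in ASK1KO iBAT. In the resistin family, Retnla, a product of alternatively activated macrophages and of white fat, read 2261, 2812, 157120 and 154840 in WT iBAT, ASK1KO iBAT, WT eWAT and ASK1KO eWAT, log2 tissue ratios of -5.20 and -5.01. Its genotype ratios were 0.25 and 0.07. Retnlg had a signal of 436 in WT eWAT and 179 in ASK1KO eWAT, a log2 ratio of -1.20, and -3.11 for iBAT minus eWAT in WT.

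Among 26 further secreted factors of fat, 16 could be compared between the tissues in WT, of which 10 were at least 2-fold lower in iBAT and 2 at least 2-fold higher, with a median of -1.39, beside 13.4% lower and 16.4% higher over all genes. Agt, angiotensinogen, was the lowest at -5.70 in WT and -5.73 in ASK1KO, and Ccl2, a monocyte attractant, had -4.10 in WT. Between genotypes in iBAT, Angptl4, an inhibitor of lipoprotein lipase, was at least 2-fold higher in ASK1KO with signals of 54330 and 114900, a log2 ratio of 1.02, and had 0.74 in eWAT. Spx, the peptide spexin, was at least 2-fold lower in ASK1KO iBAT, -1.10, from signals of 39.6 and 19.3. The lower signal was near the lowest that counts as well above background on that array, 17.3. Of 16 compared, 1 was thus at least 2-fold higher and 1 lower, beside 0.835% and 1.02% of all genes. In eWAT 1 of 19 compared was at least 2-fold higher and 3 were lower, beside 0.286% and 0.865% of all genes. The Wnt inhibitor Sfrp5 was higher at 1.15, and Tnf at -1.22, Ccl2 at -1.18 and Ccn5 at -1.06 were lower. Tnf read 29.5 in ASK1KO eWAT, where the lowest signal well above background was 20.7. Ccl2 had 0.63 in ASK1KO iBAT, the opposite sign.

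**Figure D4:**
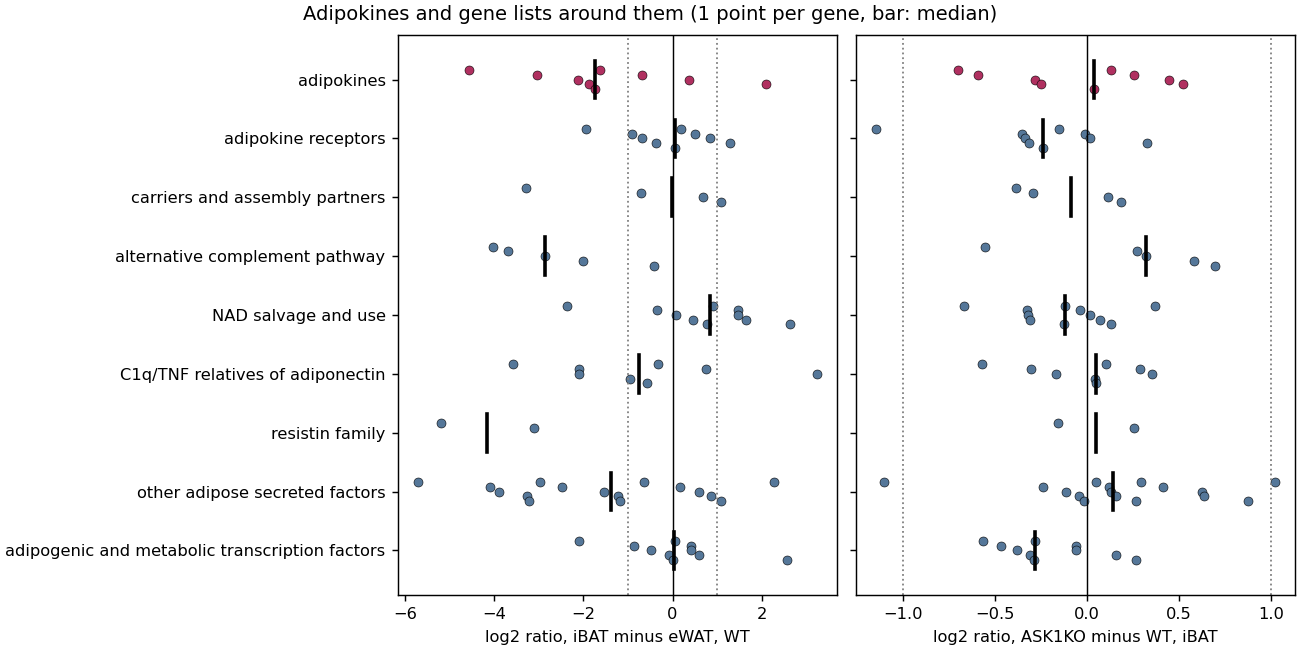
log2 ratios of the adipokines (red) and of 8 gene lists around them (blue), 1 point per gene with the list median as a bar and 2-fold as dotted lines; the left axis is iBAT minus eWAT in WT and the right axis, on its own scale, is ASK1KO minus WT in iBAT. The complement list (median -2.86) and the other secreted factors (-1.39) lie to the left with the adipokines (-1.73), as do the resistin family (-4.16, 2 genes) and the C1q/TNF relatives (-0.75), while the medians of receptors and transcription factors are near 0.

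Transcription factors of adipocytes and of their metabolism, 10 in all, had a median ratio of 0.03 for iBAT minus eWAT in WT. Cebpb had 2.57, Cebpa 0.05 and Cebpd -2.09, so members of the family that binds the palindrome found in the Lep promoter had no common direction. Between genotypes 2 of 10 had a ratio above 0 in iBAT, where 40.5% of all genes did, with a median of -0.28 and Srebf1, a driver of lipid synthesis, lowest at -0.56. In eWAT 6 of 10 were above 0, where 54.1% of all genes were, with Foxo1 highest at 0.42. No gene of this list was 2-fold apart between genotypes.

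Patterns over the 4 arrays were compared by the distance between log2 levels, each centred on the mean of its gene, among 14057 genes. Nearest to Lep were Ear10 (0.17), Serpina3i (0.20) and Ifitm6 (0.21), and only 27 genes lay within 0.5. Nearest to Retn were Cyp2e1 (0.06), Slc2a13 and Clmp, with 85 genes within 0.5. Rbp4 had the fewest neighbours, 21 within 0.5, led by Ppp4r4 (0.27), Nnmt (0.27) and Nt5e (0.31). Nampt was nearest to Isca1 (0.04), Ndufc2 (0.04) and Ndufb7 (0.06), with 564 genes within 0.5. The pattern of Apln was nearest to C9orf72, Bcl9 and Tlcd2, that of Lcn2 to Marcksl1, Icam1 and Sfrp2, and that of Rarres2 to Renbp, Ebpl and Flna. Adipoq (1110051M20Rik, Hnrnpa1 and Erp44) and Cfd (Sorbs3, Tspo2 and H4c12), which varied little, had 2939 and 5063 genes within 0.5. Among the members themselves Lcn2 and Rarres2 were closest, at 0.39, followed by Retn and Rbp4 and by Apln and Lcn2, at 0.67 each. The 4 arrays set these distances, and a short distance is a likeness of 4 values and no more.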

How the data were processed

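Per array, the authors deposited the spot table of Agilent Feature Extraction 10.7.3.1. Its processed signal, a linear intensity, is background-corrected and was not scaled between arrays. The deposited series table holds a signal that equals these intensities divided by 1 constant per array. From the intensities, control and outlier spots were left out, log2 was taken, spots of a probe were averaged and the array's 75th percentile over all probes was subtracted. A log2 ratio is averaged over those probes of the gene that were well above background on each of the 2 arrays compared. Where a probe was well above background on 1 array only, a bound was given against the floor of the dim array, which is the lowest level called well above background there or the dim signal itself if that is higher. Of 34844 gene names, 22147 matched the RefSeq gene table, giving 22066 genes.

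With 1 array a condition no test was run within a comparison, precision is limited by how few arrays there are, and a gene was counted where it was at least 2-fold apart. Genotype and tissue were also fitted together with limma 3.58.1 (R 4.3.3; lmFit, eBayes, Benjamini-Hochberg over 14057 genes). Its p-values do not measure the spread between mice. All 4 arrays lie on 1 slide and were scanned together. Other steps used Python 3.11.15, and both calculations were tested on simulated data.

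The members, the gene lists and the rules were chosen with earlier results of these data known. The named genes are the 9 members, Map3k5, in each list the genes at least 2-fold apart between genotypes or else the largest ratio in each tissue, the 2 largest tissue ratios in WT, and the 3 nearest genes by pattern. One gene that this rule names is not reported here. Adipor1, Adipor2, Cap1, Aplnr, Cmklr1, C3, Ttr, Cfi, C1qtnf6, Cebpa, Alb, Ahsg, S100a9, Ucp1, Ngp, Mmp8 and Cxcr2 were named after their values were seen. Alternatives tried were background correction by normexp (offset 50), scaling by quantiles, by cyclic loess, by medians, by the percentile of commonly detected probes or not at all, the series table, no filter on dim probes or a filter over all arrays, 1 probe a gene (the brightest) and a 1.5-fold threshold.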

Additional observations from a re-analysis of the deposited data

Results flagged for a closer look

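For 6 of the 9 adipokines the ASK1KO minus WT ratio had opposite signs in iBAT and eWAT, as it had for 50.6% of the 14059 genes measured in both tissues. The difference between the tissues was not tested, as each ratio comes from 1 pair of arrays. On the log2 scale, iBAT minus eWAT, it was -1.04 for Rbp4 (-0.70 in iBAT and 0.34 in eWAT), where 2.32% of these genes were further apart. It was 0.78 for Lcn2, with 5.62% of genes further apart, and 0.57 for Rarres2, with 12.2%. For Nampt it was -0.43, with 22.2% of genes further apart, for Retn -0.29, with 39.8%, and for Cfd 0.10, with 76.8%.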

How the results depend on the processing

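No member was 2-fold apart between genotypes under any of the 10 other ways of processing, and with a 1.5-fold threshold 2 were in iBAT, Rbp4 and Apln, beside 1262 of 14377 genes. The tissue effect of Cfd reversed to -0.51 with quantile normalization, -0.42 without scaling and -0.11 with cyclic loess, and missed the threshold of adjusted p with 4 others, by limma. Without scaling the median of all genes for iBAT minus eWAT moved from 0.12 to -0.80 in WT and from 0.03 to -0.75 in ASK1KO, and the genes at least 2-fold apart in WT split into 724 higher and 5635 lower instead of 2338 and 1905. Adipoq was then 2-fold lower in iBAT in WT (-1.61) and ASK1KO (-1.42), as under 3 of the 10 settings in each genotype. Members passing the tissue fit numbered 8 or 9, beside 47.9% to 77.3% of all genes. The genes called for genotype in the fit, 0 in the reported setting, were 24 with normexp, 139 with median centring and 128 with the series table, with no adipokine among them. Genes at least 2-fold apart between genotypes, 266 in iBAT and 177 in eWAT, became 106 and 60 with normexp, 1127 and 1036 when dim probes were kept, and 1262 and 622 at 1.5-fold. A filter over all arrays left 114 in eWAT. The 266 in iBAT, 120 higher and 146 lower, split into 170 and 105 with the percentile of commonly detected probes, 90 and 186 with median centring and 88 and 190 in the series table. Between tissues the 4243 genes in WT and 3622 in ASK1KO became 9241 and 5523 with dim probes kept and 7115 and 6450 at 1.5-fold, and 5794 in ASK1KO without scaling. The cause of these shifts was not tested. Dim signals limit Apln, Lcn2 and Lep in iBAT, which read 261 or less in every spot. No paired analysis was possible because each condition has 1 array and so no replicates to match by number, and none could be left out. The fit of genotype and tissue is the only test. It gives 1 tissue difference over both genotypes and 1 genotype difference over both tissues.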
